A study of Mus musculus with 2 samples.

Results

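The interleukin-1 (IL-1) family ligands and receptors followed here are 7 genes, taken by symbol from the 32285 genes counted in single cells of the mouse cornea and limbus. They are the ligands Il1a, Il1b, Il18 and Il33, the receptor antagonist Il1rn, and the receptors Il1r1 and Il1r2. The groups were 1 library labelled Pax6 heterozygous (genotype Pax6 +/-) and 1 library labelled wild type. The series description names 2 mice of each genotype, while the labels do not say whether these were pooled. They give neither the age, sex and strain of the mice nor the Pax6 allele, and they name no treatment. In both groups lens, retina, iris and trabecular tissue were taken out, most of the conjunctiva was cut away, and the rest was digested with liberase and trypsin before capture of single cells.

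IL-1 family ligands are made without the secretory signal most cytokines carry, and several become active only after cleavage or release from damaged cells. Interleukin-1 alpha (Il1a) and interleukin-1 beta (Il1b) both act through the receptor encoded by Il1r1, the antagonist encoded by Il1rn occupies that receptor without signalling, and the receptor encoded by Il1r2 is a decoy. Interleukin-18 (Il18) and interleukin-33 (Il33) use receptors of their own. In the cornea, interleukin-1 alpha stored in the epithelium and released on injury is known to act on the keratocytes of the stroma beneath it.

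Barcodes with at least 500 genes, at least 1000 UMIs (unique molecular identifiers, each standing for 1 captured RNA molecule) and at most 20% mitochondrial UMIs were kept. This left 9542 cells with a median of 12537 UMIs in the library labelled heterozygous and 10154 cells with a median of 10218 UMIs in the wild-type library, and 33 kept barcodes were shared between them. Epithelial cells, those with at least 30 Krt5, Krt14 and Krt15 UMIs per 10000, numbered 6712 and 8503. The library labelled heterozygous held cells of both sexes, with 46.2% carrying Xist and no Y-linked UMI and 39.4% the reverse, whereas in the wild-type library 94.6% carried Xist alone and 0 carried a Y-linked UMI alone. Pax6, the targeted gene, was at 747 CPM (UMIs per 1000000 of the class total, mitochondrially encoded genes left out) in epithelial cells of the library labelled heterozygous and 372 CPM in wild-type ones. It was thus not lower in the library labelled heterozygous. Counts per gene do not separate alleles, and the mix of epithelial cells differed between the libraries, so this level neither bears out nor contradicts the label. Directions below are therefore those of the library labelled heterozygous relative to the wild-type library. The corneal keratin Krt12 was at 1780.4 CPM and 29648 CPM in the same cells. All 15 myeloid markers and all 8 mural markers were detected in the classes of those names in both libraries, as were 8 keratocyte markers in the library labelled heterozygous and 7 of 8, all but Ptgds, in wild type. With 1 library per genotype there is no test between them, so each comparison gives both values and their ratio with an exact 95% interval that covers counting error only, and a member is called higher or lower when the ratio reaches 2-fold and 1 library holds at least 5 CPM.

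The stretches just upstream of the start sites are shown for 4 of the 5 members called in the epithelium, Il1a and Il18, which were lower in the library labelled heterozygous, and Il1rn and Il33, which were higher. RefSeq (GRCm38.p6) lists 11 such windows for the 7 members, 3 of them for Il1rn and 2 for Il33, and the most upstream start is shown for each. Capitals mark matches on either strand to the AP-1 site TGANTCA, the TATA box TATAAA and the octamer ATGCAAAT, none of which overlap, and a kappaB-type site was searched as well. The windows of 250 bases lie at chr2:129309973-129310222 on the minus strand (Il1a), chr9:50554450-50554699 on the plus strand (Il18), chr2:24336610-24336859 on the plus strand (Il1rn) and chr19:29924863-29925112 on the plus strand (Il33), and read 5′ to 3′ toward the start site.
Il1a: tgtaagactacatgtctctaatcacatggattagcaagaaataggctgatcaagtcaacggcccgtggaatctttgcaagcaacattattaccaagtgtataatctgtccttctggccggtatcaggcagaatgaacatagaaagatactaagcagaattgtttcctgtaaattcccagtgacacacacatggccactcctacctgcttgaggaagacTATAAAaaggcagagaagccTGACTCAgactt
Il18: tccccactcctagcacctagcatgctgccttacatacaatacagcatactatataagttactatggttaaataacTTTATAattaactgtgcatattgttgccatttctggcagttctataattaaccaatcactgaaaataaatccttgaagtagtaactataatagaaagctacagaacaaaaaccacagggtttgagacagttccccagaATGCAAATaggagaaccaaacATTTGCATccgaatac
Il1rn: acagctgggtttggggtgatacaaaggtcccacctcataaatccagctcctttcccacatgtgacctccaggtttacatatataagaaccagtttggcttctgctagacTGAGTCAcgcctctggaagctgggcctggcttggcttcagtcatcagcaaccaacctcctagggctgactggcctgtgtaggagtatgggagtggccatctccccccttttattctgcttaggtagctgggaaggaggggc
Il33: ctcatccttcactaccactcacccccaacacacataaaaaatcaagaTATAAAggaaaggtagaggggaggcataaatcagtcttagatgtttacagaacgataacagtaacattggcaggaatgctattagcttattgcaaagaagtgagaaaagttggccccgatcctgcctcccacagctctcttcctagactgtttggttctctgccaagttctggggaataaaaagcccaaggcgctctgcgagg
Il1a held a TATA box 32 bases and an AP-1 match 12 bases before the start, and Il1rn an AP-1 match 141 bases before it. Il18 held octamer matches 37 and 16 bases before the start and a TATA match 175 bases before it, and Il33 a TATA match 203 bases before it. Of all 32851 windows of this length, 6.75% hold the AP-1 letters, 12.4% the TATA letters, 1.60% the octamer and 1.41% the kappaB-type site. Of the members' windows, the kappaB-type site was found only in that of the third Il1rn start, 51 bases before it. The Il1r1 and Il1r2 windows held no match. A match describes the letters and shows no bound factor.

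RNA of the members lay in different cells, and the epithelium held most Il1a, Il18, Il1rn and Il33 in both libraries. Epithelial cells held 91.2% of all Il1a UMIs in kept cells of the library labelled heterozygous and 97.2% in wild type. The corresponding shares were 96.5% and 97.6% for Il18, 88.6% and 92.3% for Il1rn, and 79.3% and 96.4% for Il33. Il1b was held by myeloid cells, with 93.0% of its UMIs in 103 cells of the library labelled heterozygous and 77.6% in 31 wild-type cells. The signalling receptor Il1r1 was divided otherwise. Mural cells, the pericytes and smooth muscle cells around vessels, held 50.7% of Il1r1 UMIs in the library labelled heterozygous and 7.2% in wild type, where 78.1% lay in the epithelium. These shares follow the number of cells captured as well as the level per cell, and mural cells were 510 of the kept cells in the library labelled heterozygous and 56 in wild type.

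**Figure D1:**
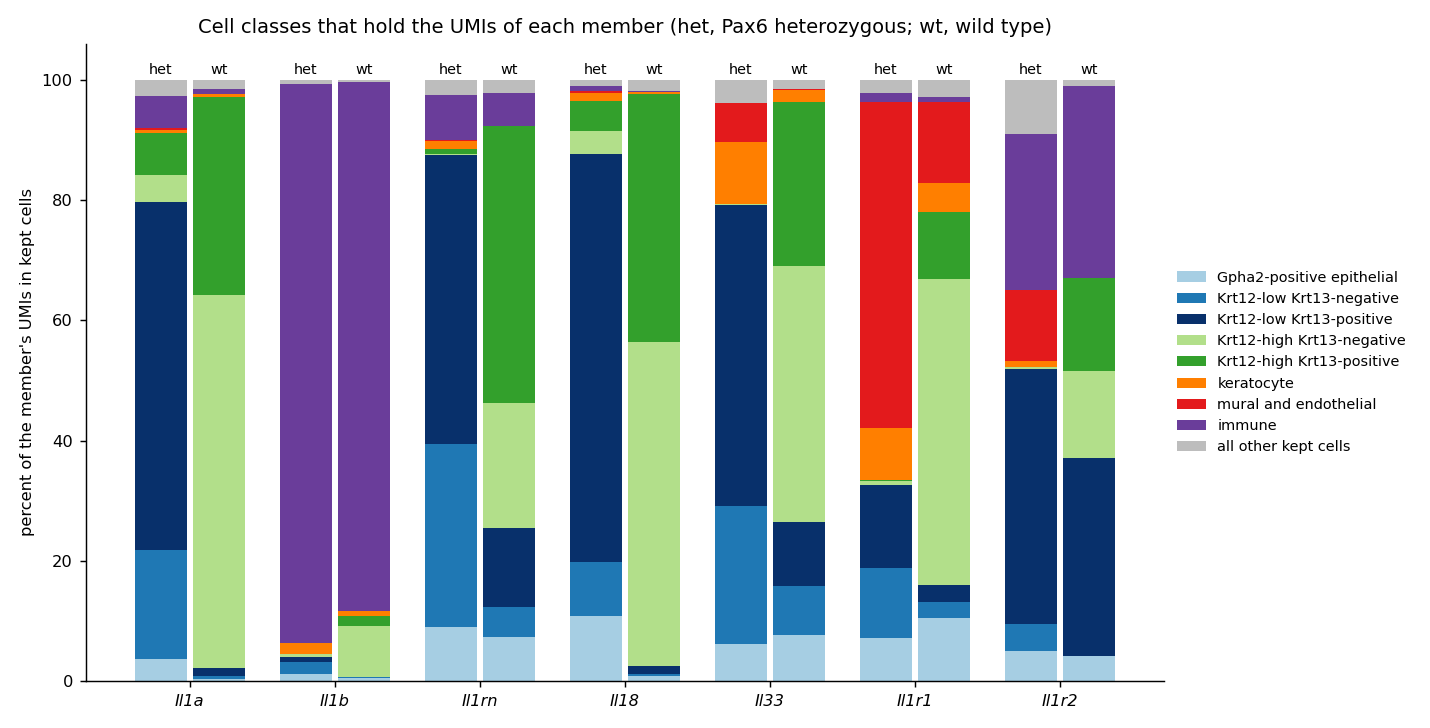
Share of each member's UMIs in kept cells (vertical axis, percent) by cell class, with the library labelled Pax6 heterozygous (het) left of wild type (wt) for each gene. Immune cells hold 93.0% and 88.1% of Il1b, and mural and endothelial cells together hold 54.4% of Il1r1 in the library labelled heterozygous and 13.3% in wild type.

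Across all epithelial cells, 5 of the 7 members reached 5 CPM in either library, and all 5 stood at least 2-fold apart. Il1rn, Il33 and Il1r1 were higher in the library labelled heterozygous, a direction shared by 16.4% of the 10611 genes measured, and Il1a and Il18 were lower, a direction shared by 6.71%. The median log2 ratio was 1.07 over the 5 members and 0.22 over all genes with a ratio. Il1b and Il1r2 stayed under 5 CPM in the epithelium of both libraries. The epithelium of the libraries also differed in its make-up, which bears on every one of these values and is set out after them.

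Il1a (GRCm38 chromosome 2, 129299610 to 129309972, minus strand) and Il18 (chromosome 9, 50554827 to 50581840, plus strand) were the lower pair. Il1a stood at 14.0 CPM (1428 UMIs) in epithelial cells of the library labelled heterozygous and 40.7 CPM (4507 UMIs) in wild type, a ratio of 0.344 (0.324 to 0.366). It was detected in 7.91% of epithelial cells of the library labelled heterozygous and 21.3% of wild-type ones. With every cell thinned to 3000 UMIs, which left out 472 and 824 shallower cells, the shares were 2.24% and 7.397%. Il18 stood at 32.5 CPM (3318 UMIs) in the library labelled heterozygous and 112 CPM (12454 UMIs) in wild type, a ratio of 0.290 (0.279 to 0.301). Its thinned shares were 4.78% and 16.9%, against 15.0% and 36.02% before thinning. Schwann cells, which are not a known source of these cytokines and serve here to show the level that free RNA gives, held 0 UMIs of either gene in 258 cells of the library labelled heterozygous and 1 UMI of each in 75 wild-type cells, at median depths of 4776 and 2611 UMIs. The epithelial levels of both genes lie above that background in both libraries.

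Il1rn (chromosome 2, 24336853 to 24351494, plus strand) was the member furthest above wild type. It stood at 19.7 CPM (2006 UMIs) in epithelial cells of the library labelled heterozygous and 2.72 CPM (301 UMIs) in wild type, a ratio of 7.24 (6.41 to 8.20). It was seen in 1068 epithelial cells of the library labelled heterozygous and 216 of wild type, and the thinned shares were 3.97% and 0.378%. Markers of myeloid cells, which make Il1rn too, were also higher in the epithelial class, all 15 of 15 detected in each library with a sum of 59.5 CPM and 19.8 CPM, as did those of neutrophils, at 25.2 CPM (7 of 8 detected, Retnlg at 0) and 1.55 CPM (5 of 8 detected, Csf3r, Retnlg and Ly6g at 0). In myeloid cells of the library labelled heterozygous Il1b was at 2427 CPM and Il1rn at 204 CPM, while in its epithelial cells Il1b was at 0.971 CPM and Il1rn at 19.7 CPM. The part of the neutrophil and other immune markers in the Il1rn value was not tested beyond these levels.

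Il33 (chromosome 19, 29925114 to 29960718, plus strand), which encodes a nuclear cytokine of barrier epithelia, vessels and stroma, stood at 13.8 CPM (1411 UMIs) in epithelial cells of the library labelled heterozygous and 3.65 CPM (404 UMIs) in wild type, a ratio of 3.80 (3.40 to 4.25). Its thinned shares were 2.93% and 0.586%, so few cells held a UMI of it after thinning. The 10 highest cells held 10.6% and 17.8% of its UMIs, so most of these UMIs lay outside those 10 cells. Il1b (chromosome 2, 129364570 to 129371139, minus strand) was near the limit of detection in the epithelium, at 0.971 CPM (99 UMIs) in the library labelled heterozygous and 0.569 CPM (63 UMIs) in wild type.

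The receptor Il1r1 (chromosome 1, 40225080 to 40317257, plus strand) stood at 25.3 CPM (2583 UMIs) in epithelial cells of the library labelled heterozygous and 12.1 CPM (1340 UMIs) in wild type, a ratio of 2.09 (1.96 to 2.24). This ratio is close to the 2-fold line, and it was under it with edgeR TMM factors, which scale the libraries by 1.25 relative to each other and gave a log2 ratio of 0.75. Schwann cells of the library labelled heterozygous held Il1r1 at 23.5 CPM (32 UMIs) and wild-type ones at 13.3 CPM (3 UMIs), so the epithelial mean of either library is close to that of a class outside the epithelium. The decoy receptor Il1r2 (chromosome 1, 40074079 to 40125231, plus strand) stood at 3.38 CPM (345 UMIs) and 0.587 CPM (65 UMIs), and 1 cell of the library labelled heterozygous held 50 of its UMIs.

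The epithelium was then split by 3 genes. Krt12 marks corneal cells (split at 100 UMIs per 10000), Krt13 marks superficial and mucosal cells (split at 10), and Gpha2 marks limbal cells (split at 3). Of the epithelial UMIs of the library labelled heterozygous, 32.3% came from Gpha2-positive cells, 38.6% from the remaining Krt12-low Krt13-negative cells and 22.3% from Krt12-low Krt13-positive cells. In wild type these classes supplied 3.97%, 1.68% and 0.789%, and 80.3% came from Krt12-high Krt13-negative cells, a class that supplied 5.65% in the library labelled heterozygous. The Gpha2-positive class numbered 2356 cells in the library labelled heterozygous and 415 in wild type, of which 6 and 179 were Krt12-high, so its make-up differed between the libraries. The Krt12-low Krt13-negative class held 2914 and 285 cells and the Krt12-low Krt13-positive class 1055 and 38, and the 285 wild-type cells had a median of 4081 UMIs.

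The epithelium was also split by 1 gene at a time. In Krt12-low cells as a whole, 0 of 6 measured members were higher, against 8.61% of genes, and 0 were lower, against 5.9%, with Il1rn at 20.9 CPM in the library labelled heterozygous and 15.4 CPM in wild type. In Krt12-high cells 0 of 3 were higher, against 9.66%, and Il18 alone was lower, against 6%. The splits were not tested against each other, and Krt12-low cells differ between the libraries in their Gpha2 and Krt13 mix. In Krt13-positive cells 4 of 6 members, Il1rn, Il33, Il1r1 and Il1r2, were higher, against 28.9%, and Il1a and Il18 lower, against 6.43%. In Krt13-negative cells Il1rn and Il33 were higher, against 17.1%, Il1r1 was not called at 18.8 and 11.5 CPM, and Il1a and Il18 lower, against 7.45%. Gpha2-negative cells gave the same 3 higher and 2 lower members as all epithelial cells, against 15.1% and 6.44% of genes.

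In the 5 exclusive classes, Il33 and Il1r1 were 2-fold higher in none, and Il1rn in 1. The levels of Il33 and Il1r1 were below wild type in all 5, though not every interval excluded 1. Il33 was under 5 CPM in Krt12-high Krt13-negative cells of both libraries. In Krt12-low Krt13-negative cells it had 409 UMIs in the library labelled heterozygous and 34 in wild type. It was there at 15.1 CPM in cells with Xist alone and 6.70 CPM in cells with Y-linked UMIs alone, against 18.3 CPM in wild type. In Krt12-low Krt13-positive cells Il1rn stood at 47.8 CPM in the library labelled heterozygous and 49.2 CPM in wild type, a ratio of 0.972 (0.717 to 1.35). Il33 was at 39.2 and 51.5 CPM, giving a ratio of 0.761 (0.564 to 1.05), and Il1r1 at 47.1 and 56.0 CPM, a ratio of 0.840 (0.631 to 1.14). These 3 intervals include 1, so no difference was detectable at the depth of 38 wild-type cells, and the intervals leave room for a ratio as low as 0.564 or as high as 1.35. Il1r2 reached 12.3 CPM (280 UMIs) and 36.6 CPM (32 UMIs) in this class, a ratio of 0.336 (0.233 to 0.501), the 1 member called in it, and it was lower in the library labelled heterozygous, as were 5.18% of genes, while 0 of 6 members were higher, against 29.7%. The highest wild-type cell held 13 of the 32 UMIs. In Krt12-low Krt13-negative cells Il1rn was at 17.6 CPM (692 UMIs) in the library labelled heterozygous and 8.60 CPM (16 UMIs) in wild type, a ratio of 2.04 (1.25 to 3.60), the 1 member higher there, against 13.3% of genes. In the same class myeloid markers summed to 43.0 CPM in the library labelled heterozygous (15 of 15 detected) and 16.1 CPM in wild type (6 of 15 detected, with Lyz2, Csf1r, Tyrobp, Fcer1g, Aif1, C1qb, Adgre1, Flt3 and Itgax at 0). Neutrophil markers summed to 29.0 CPM (6 of 8 detected, Retnlg and Ly6g at 0) and 1.08 CPM (1 of 8 detected, S100a9, Csf3r, Cxcr2, Retnlg, Ly6g, Mmp8 and Mmp9 at 0), and their part in the Il1rn value was not tested. Il18 was lower in that class, at 7.87 and 30.1 CPM, against 9% of genes. Myeloid markers summed to 132 CPM in Krt12-low Krt13-positive cells of the library labelled heterozygous (13 of 15 detected, Adgre1 and Flt3 at 0) and 202 CPM in wild type (5 of 15 detected, with Lyz2, Csf1r, Tyrobp, Fcer1g, H2-Ab1, C1qa, C1qb, Mrc1, Adgre1 and Flt3 at 0), and their part in the Il1r2 value was not tested. The class totals were 39376645 UMIs in the library labelled heterozygous and 1860380 in wild type for Krt12-low Krt13-negative cells, and 22773152 and 874454 for Krt12-low Krt13-positive cells. The numbers of markers detected therefore rest on unlike depths and do not compare levels.

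Il18 had ratios below 1 in all 5 classes, and so did Il1a in the 4 classes where it was measured, in each of which its ratio was the nearer to 1. In Krt12-low Krt13-positive cells Il18 stood at 102 CPM in the library labelled heterozygous and 188 CPM in wild type, a ratio of 0.546 (0.466 to 0.644). Among Krt12-high Krt13-negative cells, the bulk of wild-type epithelium, Il18 was at 23.3 and 77.2 CPM, giving a ratio of 0.301 (0.252 to 0.358), and Il1a at 12.2 and 32.4 CPM, a ratio of 0.375 (0.292 to 0.476). Both were lower there, against 6.54% of genes, and 0 of 3 members were higher, against 9.86%. For Krt12-high Krt13-positive cells the interval of Il1a included 1 and that of Il18 did not. In these Krt12-high Krt13-positive cells, 41 in the library labelled heterozygous and 597 in wild type, Il1a was at 102 and 104 CPM, giving a ratio of 0.987 (0.806 to 1.20), while Il18 was at 158 and 358 CPM, giving a ratio of 0.442 (0.377 to 0.515). Il33 in the same class had 0 UMIs in the library labelled heterozygous, which allows up to 2.79 CPM, and 7.82 CPM in wild type. With Il18 this made 2 of 5 members lower, against 7.22% of genes, and 0 higher, against 18.5%.

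**Figure D2:**
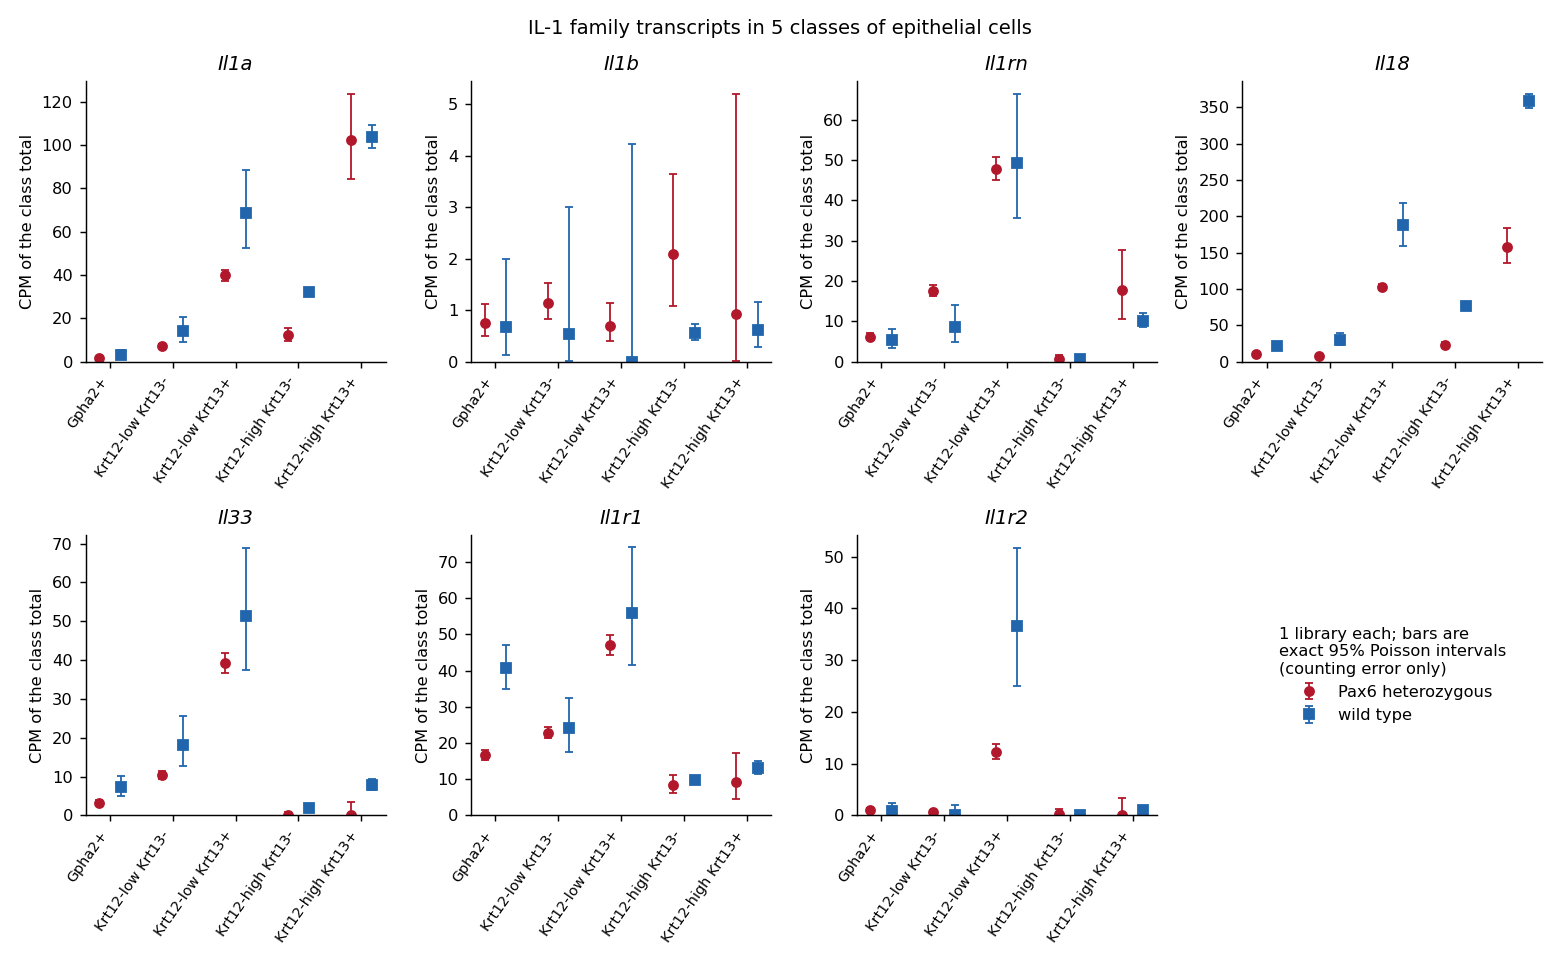
Level of each member (vertical axis, CPM of the class total, scale set per gene) in 5 exclusive classes of epithelial cells, with the library labelled Pax6 heterozygous (red circles) left of wild type (blue squares) and exact 95% Poisson intervals of the counts. Il1rn, Il33, Il1r1 and Il1r2 peak in Krt12-low Krt13-positive cells of both libraries, and Il18, Il33 and Il1r1 are below wild type in all 5 classes.

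Gpha2-positive cells, which carry a marker of the limbal stem and progenitor cells, had low Il1a and held Il1r1. Il1r1 stood at 16.7 CPM (550 UMIs) in those of the library labelled heterozygous and 40.7 CPM (179 UMIs) in wild type, a ratio of 0.410 (0.346 to 0.488) below 1, while the ratio over all epithelial cells was above it. In the Krt12-low cells of the class alone, 2350 and 236 in number, a split added after the data were seen, Il1r1 was at 16.7 and 48.1 CPM, giving a ratio of 0.348 (0.284 to 0.429). Over the whole Gpha2-positive class Il1r1 was detected in 16.1% and 30.6% of cells. The level in the library labelled heterozygous is below the 23.5 CPM of its Schwann cells, and the wild-type level is above the 13.3 CPM of its own. Il33 was lower as well, at 3.31 and 7.28 CPM, a ratio of 0.454 (0.304 to 0.696), with levels close to the 5.87 and 4.43 CPM of Schwann cells. These were 2 of 4 members measured in the class, against 5.67% of genes, and 0 were higher, against 10.5%. Il1a stood at 1.73 and 3.18 CPM there, under 5 CPM in both libraries, and the wild-type level is below the 4.43 CPM that 1 UMI gives in Schwann cells. Il18 stood at 11.2 and 21.8 CPM in the class, but at 11.2 and 10.03 CPM in its Krt12-low cells, a ratio of 1.12 (0.739 to 1.77), so the lower Il18 level was not seen there. Within each library, Gpha2-positive cells had less Il1a than the remaining epithelial cells, with ratios of 0.0870 (0.0655 to 0.113) in the library labelled heterozygous and 0.0754 (0.0412 to 0.127) in wild type. For Il1r1 the same contrast was 0.566 (0.514 to 0.622) in the library labelled heterozygous and 3.73 (3.17 to 4.37) in wild type. For Il33 it was 0.175 (0.143 to 0.213) and 2.08 (1.40 to 2.99), and for Il1rn 0.234 (0.202 to 0.271) and 2.10 (1.32 to 3.19), so wild-type Gpha2-positive cells held more of these than the remaining wild-type epithelium.

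All members but Il1b followed Krt13 in both libraries. Il18 was at 5.67 CPM in cells without a Krt13 UMI and 257 CPM in cells above 100 per 10000 in the library labelled heterozygous, and at 43.4 and 403 CPM in wild type. Il1a was at 2.42 and 71.2 CPM in the library labelled heterozygous over the same span, and at 20.6 and 107 CPM in wild type, its top bin of 26 cells lying below the 112 CPM of the bin before. Il1rn was at 5.86 and 63.8 CPM in the library labelled heterozygous, and at 0.570 and 36.5 CPM in wild type. For Il33 the ends were 3.96 and 49.1 CPM in the library labelled heterozygous, and 1.89 and 14.2 CPM in wild type. Il1r2 was low outside the upper bins, at 0.864 and 29.0 CPM in the library labelled heterozygous, and 0.225 and 30.4 CPM in wild type. Il1r1 had the flattest slope of these, 16.7 and 52.0 CPM in the library labelled heterozygous and 10.6 and 18.2 CPM in wild type. Il1b followed no such course, at 0.591 CPM in the top bin of the library labelled heterozygous and 1.10 CPM in the bottom one. Cells rich in Krt13 were also deeper, with medians of 18674 and 20518 UMIs in Krt13-positive cells and 13658 and 10838 in Krt13-negative ones, and CPM divides that out.

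**Figure D3:**
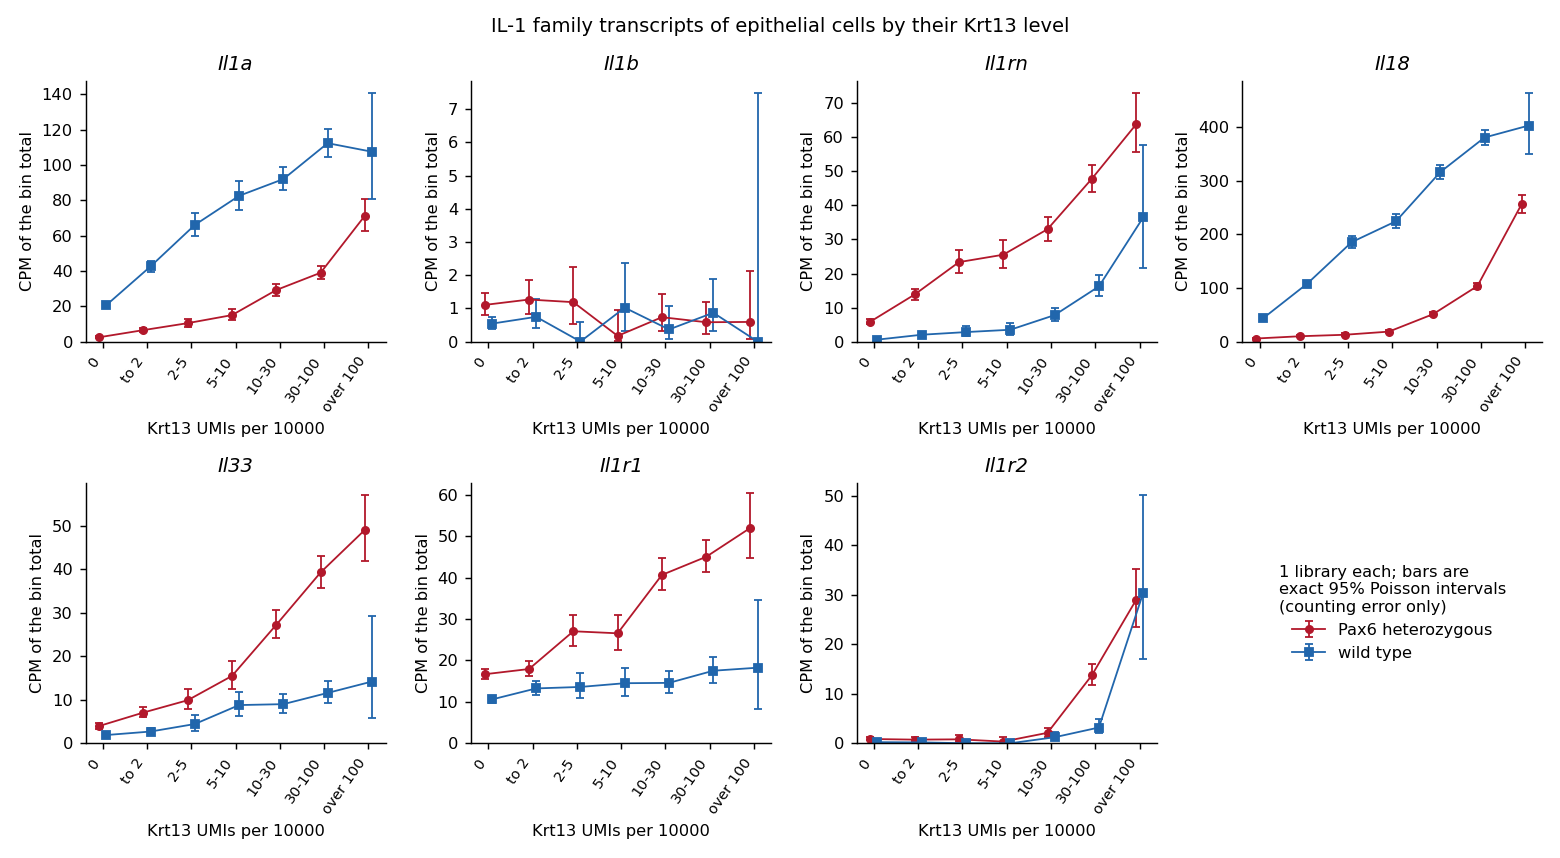
Level of each member (vertical axis, CPM of the bin total) over 7 bins of Krt13 UMIs per 10000 (horizontal axis) in epithelial cells of the library labelled Pax6 heterozygous (red circles) and of wild type (blue squares), with exact 95% Poisson intervals. Il18 ends at 257 CPM in the library labelled heterozygous and 403 CPM in wild type, and Il1b stays flat.

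Weighting both libraries to 1 common mix of the 5 classes, an alternative chosen after the data were seen, changed the direction of 3 members. At the mix of the library labelled heterozygous, the log2 ratio was -0.61 for Il33, -0.50 for Il1r1 and -1.33 for Il1r2, against 1.92, 1.07 and 2.53 with each library at its own mix. At the wild-type mix these were -2.27, -0.35 and -0.45. The Krt12-high classes, Krt13-negative and Krt13-positive, supply most of that mix. In them the library labelled heterozygous held 1 and 0 Il33 UMIs, and 2 and 0 Il1r2 UMIs. Il1rn stayed above wild type by less than 2-fold, with log2 ratios of 0.28 and 0.49 at the mixes of the library labelled heterozygous and of wild type, against 2.86 unweighted. Il18 remained at least 2-fold lower at either mix of these classes, with log2 ratios of -1.08, near the 2-fold line, and -1.45, and Il1a was lower by less, with -0.82 and -0.77. The wild-type mix gives most weight to the 346 Krt12-high Krt13-negative cells of the library labelled heterozygous, and the other mix to Gpha2-positive and Krt12-low cells, which are few in wild type.

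The split of the library labelled heterozygous by sex-linked transcripts gave the same directions over all epithelial cells. Il1a stood at 16.6 CPM in its 3350 epithelial cells with Xist alone and 10.9 CPM in its 2470 cells with Y-linked UMIs alone, against 40.7 CPM in wild type. Il18 stood at 31.2 and 33.5 CPM in these sets, against 112 CPM in wild type, and Il1rn at 19.2 and 20.5 CPM, against 2.72 CPM. Il33 differed between the sets, at 18.1 and 9.62 CPM, against 3.65 CPM in wild type. Il1r1 was at 27.9 and 22.2 CPM, with ratios to wild type of 2.30 and 1.84, so the second set did not reach 2-fold. The sets differed in make-up, with Krt12-high Krt13-negative cells at 8.06% and 1.74% of their epithelial cells (270 and 43 cells). Since wild-type cells with Y-linked UMIs alone were absent, the second set has no counterpart of its own sex, and in it sex and label cannot be told apart.

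**Figure D4:**
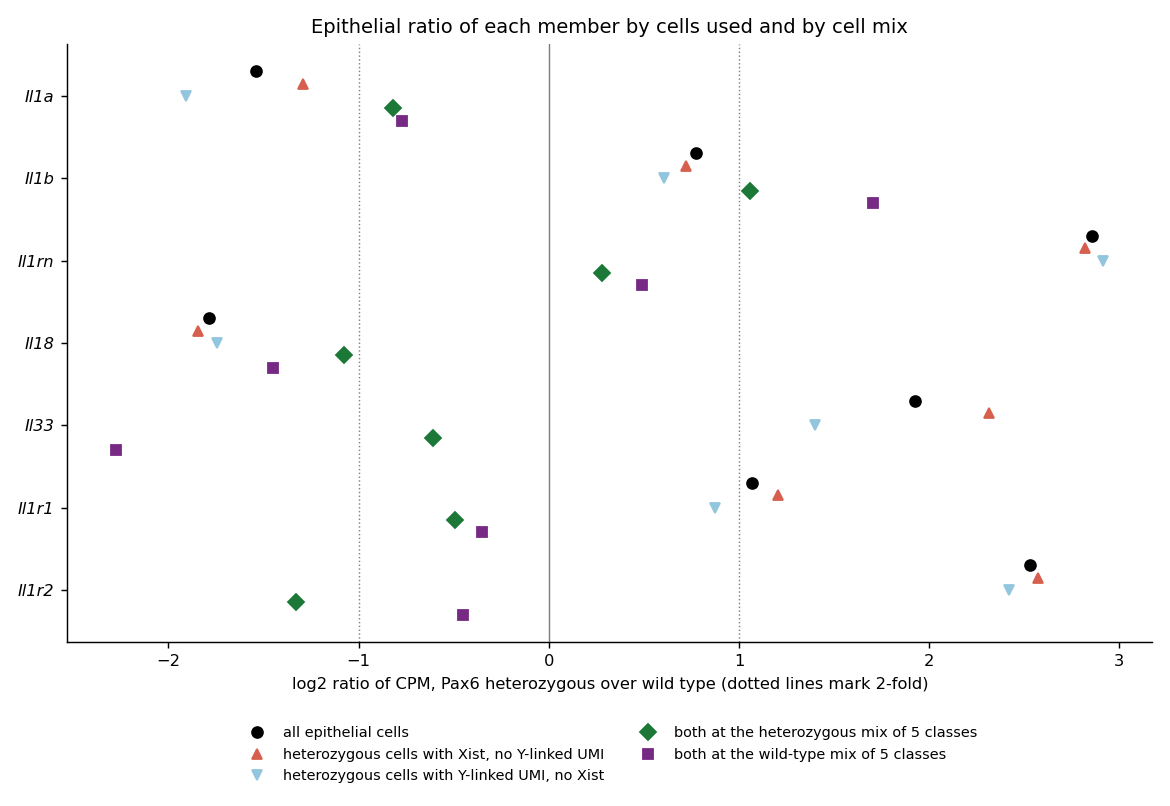
Log2 ratio of CPM in epithelial cells with the library labelled heterozygous as numerator and wild type as denominator (horizontal axis), for each member and 5 ways of forming the ratio, with dotted lines at 2-fold. Il33, Il1r1 and Il1r2 lie right of 0 with each library at its own mix and left of it at both common mixes, while Il18 is left of -1 throughout.

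In keratocytes, the collagen-making cells of the stroma (984 in the library labelled heterozygous and 693 in wild type), Il1r1 and Il33 were higher and Il18 was lower. This is 2 of 3 measured members higher, against 9.2% of 11014 genes, and 1 lower, against 8.81%. Il1r1 stood at 49.9 CPM (669 UMIs) in the library labelled heterozygous and 13.7 CPM (83 UMIs) in wild type, a ratio of 3.64 (2.89 to 4.63), with thinned shares of 12.1% and 4.19%, against 7.11% and 3.85% of Schwann cells. Il33 stood at 13.7 CPM (184 UMIs) and 1.32 CPM (8 UMIs), a ratio of 10.4 (5.16 to 24.4). In the library labelled heterozygous it was at 34.3 CPM in 197 cells with Xist alone and 8.93 CPM in 627 cells with Y-linked UMIs alone. Il33 lay in 36 of the 984 cells of the library labelled heterozygous, and the highest 10 held 70.1% of its UMIs. Il18 stood at 3.43 CPM (46 UMIs) and 8.75 CPM (53 UMIs), a ratio of 0.392 (0.258 to 0.593). This lower call was lost in the 197 keratocytes of the library labelled heterozygous with Xist alone, at 8.59 CPM and a ratio of 0.981 (0.568 to 1.64), and with the keratin gate alone, at a log2 ratio of -0.91. In the same wild-type keratocytes Krt12, a transcript of epithelial cells, was at 1899.65 CPM, against 99.8 CPM in the library labelled heterozygous, and the part of free epithelial RNA in the Il18 values was not tested. Il1rn was at 2.24 CPM (30 UMIs) in the library labelled heterozygous and 0 UMIs in wild type, at least 4.52-fold higher against a floor of 3 UMIs. Il1b was at 2.91 and 0.826 CPM, and 36 of the 39 UMIs in the library labelled heterozygous came from 1 cell.

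Within the keratocyte class, Il1r1 and Il33 were at higher levels in cells with little Kera, which encodes the corneal proteoglycan keratocan, in both libraries. Kera-low cells, under 20 Kera UMIs per 10000, were 447 in the library labelled heterozygous and 122 in wild type. They held Il1r1 at 90.5 CPM and 63.8 CPM, a ratio of 1.42 (1.04 to 1.97) that is not a 2-fold gap. In Kera-high cells, 537 and 571 in number, Il1r1 was at 26.2 and 7.10 CPM, giving a ratio of 3.69 (2.61 to 5.35). Il33 was at 32.0 and 8.51 CPM in Kera-low cells, giving a ratio of 3.76 (1.69 to 10.4) on 158 and 6 UMIs, and at 3.07 and 0.374 CPM in Kera-high cells. Il1r1 was thus 1 of 2 members higher in Kera-high cells, against 8.84% of genes, and Il18 was lower, against 12.9%, while in Kera-low cells Il33 was 1 of 4 higher, against 9.62%, and Il1a and Il18 were lower, against 11.1%. At the wild-type mix of the Kera-high and Kera-low cells, a weighting also chosen after the data were seen, Il1r1 had a ratio of 2.46 and Il33 a ratio of 4.87 over all keratocytes.

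Among the classes of at least 50 cells, mural cells held the highest Il1r1 level in each library. In mural cells Il1r1 stood at 1109 CPM (3922 UMIs) in the library labelled heterozygous and 559 CPM (123 UMIs) in wild type, a ratio of 1.99 (1.66 to 2.40) that does not reach 2-fold. It was detected in 443 of 510 and 36 of 56 mural cells, with thinned shares of 78.1% and 62.5%. Il1r2 and Il33 had 78 and 70 UMIs in mural cells of the library labelled heterozygous, at 22.1 and 19.8 CPM, and 0 UMIs in wild type, where the limit of 3 UMIs is 13.6 CPM. That makes them at least 1.62-fold and at least 1.45-fold higher, bounds that do not reach 2-fold. Because wild type was at 0 they count as the 2 of 3 measured members higher, against 16.8% of genes, and 0 were lower, against 13.7%. Of the Il33 UMIs, 95.7% lay in 10 cells. In blood endothelial cells, 301 and 77 in number, Il1r1 ran the other way, at 95.5 CPM (249 UMIs) in the library labelled heterozygous and 256 CPM (104 UMIs) in wild type, a ratio of 0.374 (0.296 to 0.474). It and Il1a, with 2 and 3 UMIs, were the 2 members lower there, against 7.91% of genes, and 0 were higher, against 15.4%. The 10 highest wild-type cells held 77.9% of its UMIs and the 10 highest cells of the library labelled heterozygous 34.1%. Both sex-marker sets of the library labelled heterozygous lay below wild type there, at 89.2 and 113 CPM. Lymphatic endothelial cells held Il33 at 23.0 CPM (40 UMIs in 172 cells) in the library labelled heterozygous, and 14 wild-type cells had 1 UMI.

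Myeloid cells were the source of Il1b and also held Il1rn, Il1r2 and Il1a. Il1b stood at 2427 CPM in 103 cells of the library labelled heterozygous and 2436 CPM in 31 wild-type cells, a ratio of 0.996 (0.900 to 1.11). It was detected in 80.6% and 74.2% of them. Il1rn stood at 204 CPM (170 UMIs) and 75.0 CPM (14 UMIs), a ratio of 2.72 (1.58 to 5.08), and Il1r2 at 206 CPM (172 UMIs) and 48.2 CPM (9 UMIs), a ratio of 4.28 (2.20 to 9.52). Of the Il1r2 UMIs in the library labelled heterozygous, 76.7% lay in 10 cells. Il1a was at 100.7 and 209 CPM, giving a ratio of 0.482 (0.326 to 0.725). Counting Il1r1, at 55.2 CPM (46 UMIs) and 26.8 CPM (5 UMIs), 3 of 6 measured members were higher in the myeloid class, against 20.8% of genes, and 1 was lower, against 22.5%, so calls of this size are frequent at these counts. Il33 had 0 UMIs in myeloid cells of both libraries. Neutrophils, which are known carriers of the decoy receptor, numbered 0 in the library labelled heterozygous and 4 in wild type, and those 4 held 61 Il1b and 22 Il1r2 UMIs. The 16 T or NK cells of the library labelled heterozygous held Il1r1 at 852 CPM (64 UMIs) and the 3 of wild type at 1266 CPM (11 UMIs).

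**Figure D5:**
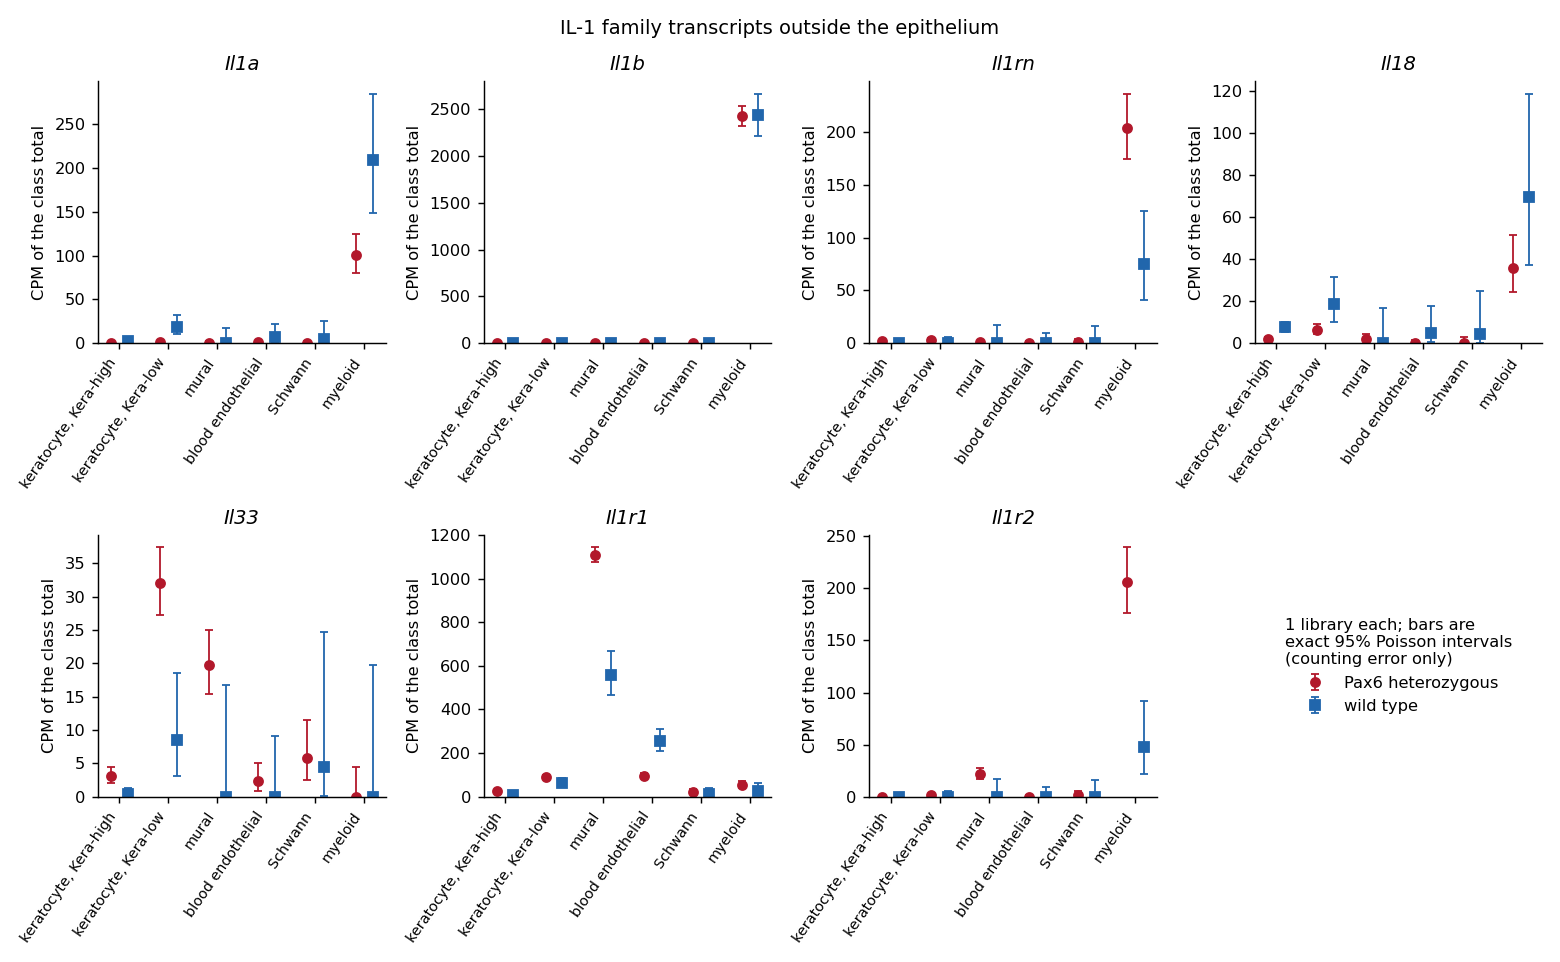
Level of each member (vertical axis, CPM of the class total, scale set per gene) in 6 classes outside the epithelium, with the library labelled Pax6 heterozygous (red circles) left of wild type (blue squares) and exact 95% Poisson intervals. Il1b is high in myeloid cells alone at 2427 and 2436 CPM, and Il1r1 is highest in mural cells at 1109 and 559 CPM.

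The partners of the members were described from lists of pathway genes. Of 9 other receptors and co-receptors, 5 were measured in the epithelium, 3 were higher in the library labelled heterozygous, against 16.4% of all genes measured there, and 0 lower, against 6.71%. The same shares apply to the epithelial counts of the other lists. These were Il1rap, the shared co-receptor, at 21.0 CPM in the library labelled heterozygous and 7.42 CPM in wild type, Il18r1, the interleukin-18 receptor, at 14.0 and 2.73 CPM, and Il1rl2, the interleukin-36 receptor, at 45.4 and 11.4 CPM. In Krt12-low Krt13-positive cells 0 of the 5 were higher, against 29.7% of genes, and 0 lower, against 5.18%, with Il18r1 at 29.5 and 28.6 CPM and Il1rap at 20.3 and 19.4 CPM. In Krt12-low Krt13-negative cells, where the wild-type cells were shallower, 3 of 5 were higher, against 13.3% of genes, and 0 lower, against 9%. Il1rap stood at 25.0 and 7.53 CPM there, Il1rl2 at 42.7 and 11.3 CPM, and Sigirr at 6.53 and 1.08 CPM on 2 wild-type UMIs. Of 5 further ligands only Il1f9, which encodes interleukin-36 gamma, was measured in the epithelium, at 10.2 and 0.469 CPM. It was not called in Krt12-low Krt13-positive cells, at 19.6 and 13.7 CPM, a ratio of 1.43 (0.809 to 2.78). Il1f5, the other of 2 further ligands measured there, was lower, at 0.307 and 10.3 CPM on 7 and 9 UMIs, against 5.18% of genes. In Krt12-low Krt13-negative cells Il1f9 was higher, at 10.7 CPM with 0 UMIs in wild type, against 13.3% of genes. Il1rl1, the interleukin-33 receptor, was seen in myeloid cells at 10.8 CPM in the library labelled heterozygous and 10.7 CPM in wild type, on 9 and 2 UMIs.

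Of 18 genes of inflammasomes and cytokine processing, 7 were measured in the epithelium, 2 higher and 0 lower. Casp1, whose protease matures interleukin-18 and interleukin-1 beta, stood at 8.83 CPM in the library labelled heterozygous and 0.153 CPM in wild type, and Casp4 at 70.6 and 1.70 CPM. In Krt12-low Krt13-positive cells 3 of 8 measured genes were higher, against 29.7% of genes, and 2 were lower, against 5.18%. Casp1 stood at 18.1 and 5.72 CPM there and Casp4 at 32.5 and 10.3 CPM, on 5 and 9 wild-type UMIs, and Aim2 at 6.89 CPM with 0 UMIs in wild type. The lower ones were Capn2, at 61.2 and 138 CPM, and Nlrp1b, with 0 UMIs in the library labelled heterozygous and 5 in wild type. Pycard, the adaptor that recruits caspase-1, was at 171 and 251 CPM over the epithelium, giving a ratio of 0.681 (0.668 to 0.694). Of 14 measured signalling genes, 0 were higher and 1 was lower, the kinase gene Irak2 at 31.6 and 94.7 CPM, while Myd88, the adaptor of the family, was at 55.2 and 28.7 CPM, giving a ratio of 1.93 (1.84 to 2.01).

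Of 15 genes listed as responses to IL-1, 9 were measured in the epithelium, with 4 higher and 1 lower in the library labelled heterozygous. Icam1, an adhesion molecule for leukocytes, stood at 142 CPM in the library labelled heterozygous and 12.03 CPM in wild type, Lcn2, an iron-binding protein of barrier defence, at 64.9 and 0.235 CPM, Ptgs2 at 12.9 and 1.88 CPM, and Csf3 at 6.61 and 0.541 CPM. Tnfaip3, which restrains NF-kappaB signalling, was the lower one, at 13.8 and 31.3 CPM, and Nfkbia, the inhibitor that the pathway itself induces, was at 367 and 647 CPM, giving a ratio of 0.568 (0.561 to 0.575). In Krt12-low Krt13-positive cells 4 of 8 measured response genes were higher, against 29.7% of genes, and 1 was lower, against 5.18%. Icam1 was higher there, at 29.6 and 4.57 CPM, as was Lcn2, at 19.4 CPM (442 UMIs) with 0 UMIs in wild type. Tnfaip3 was the lower one, at 12.5 and 70.9 CPM. In keratocytes 7 of 12 measured response genes were higher, against 9.2% of all genes, and 0 lower, against 8.81%, Il6 at 47.5 and 3.14 CPM and Icam1 at 186 and 54.2 CPM among them. In mural cells 7 of 11 were higher, against 16.8%, and 0 lower, against 13.7%, with Il6 at 2109.9 and 727 CPM and Cxcl1 at 4767 and 2358 CPM. These genes respond to other signals than IL-1, and the lists give no measure of IL-1 activity.

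Across 23 profiles of classes by library with at least 50 cells, the genes most like each member were ranked by the correlation of log2(CPM + 5) among 11627 genes. The profiles share libraries and depth, so the values are descriptions. Il18 was closest to Krt6b (r = 0.94), Flacc1 (0.93) and Dusp22 (0.93), and Il1a to Fermt3 (0.88), Il18 itself (0.88) and Fmn1 (0.86). Il1b was closest to Ccr1, Ms4a14 and Bcl2a1a (0.99 each), and Il1rn to Epsti1 (0.91), Irf5 (0.91) and Cd68 (0.90). Il1r1 was closest to Il6 (0.91), Msx1 (0.90) and Pcdh19 (0.90), and Il1r2 to Ccl6 (0.93), Stat4 (0.92) and Ccl5 (0.91). Il33 had no near match, the closest being Olfm4 (0.73), Rhou (0.66) and Engase (0.63). Between members, Il1b and Il1r2 gave r = 0.82 and Il1rn and Il1r2 r = 0.80, whereas Il18 and Il1r1 gave r = -0.43.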

How the data were processed

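Single cells of mouse cornea and limbus were captured in 1 library per genotype. The deposited counts are UMI counts per gene and barcode made by the authors with Cell Ranger 8.0.0, per the file headers, against GRCm38, per the submitters' processing notes. How reads were filtered or the called barcodes chosen is not given in the sources used here. The values were used as deposited, with no ambient RNA correction.

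Barcodes under 500 genes, under 1000 UMIs or over 20% mitochondrial UMIs were dropped, and cells were put in classes by summed marker UMIs per 10000 with at least 3 markers detected. Epithelial cells passed 30 for Krt5, Krt14 and Krt15. The gate of another class was 60 for keratocytes, 20 for blood endothelial, mural, Schwann and myeloid cells, and 10 for lymphatic endothelial cells, neutrophils and T or NK cells. A cell over the keratin gate and another gate went to the other class below 150 keratin UMIs per 10000 (68 and 47 cells) and was set aside from there up (16 and 2 cells), in the library labelled heterozygous and in wild type. No doublet caller was run, and leaving out the deepest cells was an alternative. In the same order, 470 and 696 cells were unassigned.

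UMIs were summed over the cells of a class and library. CPM leaves out the 13 mitochondrially encoded genes. Intervals are exact 95% Poisson, Clopper-Pearson or, for ratios, conditional binomial intervals, and cover counting error only. A gene is measured at 5 CPM or more in either library and called at 2-fold. The limit for a count of 0 is 3 UMIs. The mice of a genotype cannot be separated by label, so no test between genotypes was made. Shares of cells were also taken after thinning each cell to 3000 UMIs in 1 seeded random draw. Python 3.11.15 with numpy 2.4.6, scipy 1.17.1, pandas 2.3.3 and matplotlib 3.10.9 was used, and edgeR 4.0.16 and DESeq2 1.42.0 in R 4.3.3 gave alternative scaling factors on the deposited counts, with no test. The calculations were tested on simulated data.

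The members and the pathway lists were chosen with earlier results of these data known. Every member is named, and 3 genes most like each member are named among genes with at least 20 CPM in 1 class. Pathway genes come from the lists. Those called over all epithelial cells are given, with some that bear on a member, while in the other classes only part of the called genes, higher or lower, is given.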

Additional observations from a re-analysis of the deposited data

Results flagged for a closer look

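For Il33, Il1r1 and Il1r2, the ratio between the libraries was above 1 in some sets of cells and below 1 in others, some of them parts of the epithelial class. These contrasts between classes were not tested, since each library is 1 sample, and all ratios are of CPM in the library labelled heterozygous over CPM in wild type. The ratio of Il33 was 3.8 in epithelial cells and 10.4 in keratocytes, and 0.454 in Gpha2-positive and 0.0868 in Krt12-high Krt13-negative epithelial cells, the last on 1 UMI in the library labelled heterozygous. The ratio of Il1r1 was 2.09 in epithelial cells and 3.64 in keratocytes, and 0.41 in Gpha2-positive and 0.374 in blood endothelial cells. The ratio of Il1r2 was 5.77 in epithelial cells and 4.28 in myeloid cells, and 0.336 in Krt12-low Krt13-positive cells. Within the epithelium these values set the whole class against its parts, whose mix differed between the libraries. With both libraries at the mix of the library labelled heterozygous, the epithelial ratios were 0.656 for Il33, 0.709 for Il1r1 and 0.399 for Il1r2. At the wild-type mix they were 0.207, 0.784 and 0.730.

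A set of cells outside every class also held members. These are the Krt12-low cells below the keratin gate, 452 in the library labelled heterozygous and 227 in wild type. Il1r1 was at 69.1 CPM in those of the library labelled heterozygous and 17.2 CPM in wild-type ones. Il33 was at 33.6 CPM and 2.71 CPM, with all 51 UMIs of the library labelled heterozygous in 8 cells. Il1r2 was at 36.2 CPM and 0.905 CPM, with 55 UMIs in 6 cells of the library labelled heterozygous. Il1rn was at 30.3 CPM and 3.62 CPM, and Il1b was at 8.55 CPM, from 13 UMIs of 1 cell, and 0.905 CPM.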

How the results depend on the processing

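Of the counts of members called in epithelial cells and keratocytes, 46 values under alternatives stayed within 1.5 times, 8 were smaller and 2 larger. In epithelial cells the count of higher members, 3, was 1 at a minimum of 20 CPM and 0 when both libraries were weighted to the class mix of the library labelled heterozygous or to the wild-type mix, and the count of lower members, 2, was 1 at the wild-type mix. A loss of Il1r1 alone from the higher members counts as within 1.5 times. Il1r1 fell under 2-fold with edgeR TMM or DESeq2 factors, and had a ratio of 1.84 with cells that carry Y-linked UMIs alone. In keratocytes the count of lower members, 1, was 0 at 20 CPM, 0 with the keratin gate alone, 0 with cells of the library labelled heterozygous that carry Xist alone, and 2 with no minimum. The count of higher members, 2, was 1 at 20 CPM and 5 with no minimum. Fewer genes are measured at 20 CPM and more with no minimum, and for the other settings the cause was not tested. Directions reversed in epithelial cells for Il33, Il1r1 and Il1r2, with log2 ratios of -0.61, -0.50 and -1.33 at the mix of the library labelled heterozygous and -2.27, -0.35 and -0.45 at the wild-type mix. Il1b in keratocytes had a log2 ratio of -0.38 as a mean over cells and -1.08 with the cells that carry Xist alone, and 1 cell of the library labelled heterozygous held 36 of its 39 UMIs. Over 14 alternatives Il18 in epithelial cells ranged between -2.58 and -1.08, Il1a between -2.29 and -0.77 and Il1rn between 0.28 and 2.92, each with 1 sign. The alternatives that change only the CPM minimum cannot alter a ratio. In keratocytes Il1r1 ranged between 1.30 and 2.13 and Il33 between 2.28 and 4.70. The weightings, the split of Gpha2-positive cells by Krt12 and the lower keratocyte gate were chosen after the data were seen. No paired analysis was possible because each genotype has 1 library. Wild-type Krt12-low classes hold few cells, which limits every comparison within them.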
